A study of Homo sapiens and Mus musculus with 21 samples.

Results

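Resting double positive thymocytes from a Dhx15 knockout thymus and from a control thymus were compared by single-cell RNA-seq. The cells were chosen from measured values: a cell had at least 500 genes and mitochondrial genes under 10% of its unique molecular identifiers (UMIs, counted RNA molecules), at least 1 UMI of Cd8a or Cd8b1, at least 1 UMI of Rag1, and 0 UMIs of Mki67, Top2a, Il2ra and Cd69. The gate took 1840 cells of the knockout library and 4675 of the control library, 6515 of 16079 filtered thymus cells in all. The 21 samples of the series come from a human T-cell leukemia line and from mouse thymus, and only the 2 thymus libraries hold these cells. The knockout library was made from total thymocytes of 6-week-old Dhx15 KO mice, and the control library from 6-week-old Dhx15fl/fl mice. Thymus tissue was passed through a strainer and the cells were captured in droplets. The sources used here do not state which promoter drives Cre, whether the control mice carry a transgene or how many mice were pooled. With 1 library per group no difference between the groups could be tested, and every interval below is an exact 95% interval that covers counting error only.

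Double positive thymocytes carry both coreceptors, CD4 and CD8, and make up most of a young thymus. After a proliferative burst driven by the pre-T-cell receptor they stop dividing, switch the recombinase RAG1 and RAG2 on again and rearrange the T-cell receptor alpha locus. A cell whose receptor engages self peptide and MHC starts positive selection and displays CD69. The gate therefore aims at non-cycling cells still awaiting selection, and resting is the name given here to the cells it took. Undetected Cd69, Mki67 and Top2a do not show that a cell lacks these transcripts. Requiring 12 cycling genes to be undetected lowered the gated share of filtered cells from 25.3% to 13.0% in the knockout. In the control that share fell from 53% to 32.4%. The gate did not require Cd4 and did not keep out cells with gamma delta genes. DHX15 is a DEAH-box RNA helicase that takes apart spliceosomes after splicing and acts in ribosome assembly, in both cases together with partner proteins that carry a G-patch.

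Resting double positive cells were 25.3% (24.3 to 26.4) of the filtered cells in the knockout library and 53% (52.0 to 54.1) in the control library. The condition on Cd8a and Cd8b1 left 72.6% of knockout cells and 91.8% of control cells, and that on Rag1 then left 60.7% of knockout cells and 77.5% of control cells. The condition on Mki67 and Top2a left 34.6% of knockout cells and 60.9% of control cells. Cells kept out by Mki67 or Top2a alone numbered 1244 in the knockout library and 1222 in the control library, and Il2ra alone kept out 440 knockout cells and 181 control cells. Cells just inside the Rag1 condition, with exactly 1 Rag1 UMI, were 4.78% of the gated knockout cells and 4.19% of the gated control cells. Of the cells that Cd69 alone kept out, 126 of 185 knockout cells and 293 of 493 control cells had exactly 1 Cd69 UMI. The gate defines these shares, and shares of cells in a single library of each group carry no animal-to-animal error.

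More UMIs were counted per gated knockout cell than per gated control cell. The median was 3738 UMIs per knockout cell (quartiles 2866 and 5716) and 3232 per control cell (quartiles 2710.5 and 3909.5), and the summed counts were 8563550 UMIs in the knockout and 16334625 in the control. Over all barcodes the medians were 6083.5 UMIs in the knockout library and 3599 in the control library, so the gated cells differed in depth less than the libraries did. The mitochondrial share was 4.60% in gated knockout cells and 3.64% in gated control cells at the median. The libraries shared 17 barcode strings, 3 of them gated in both.

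**Figure D1:**
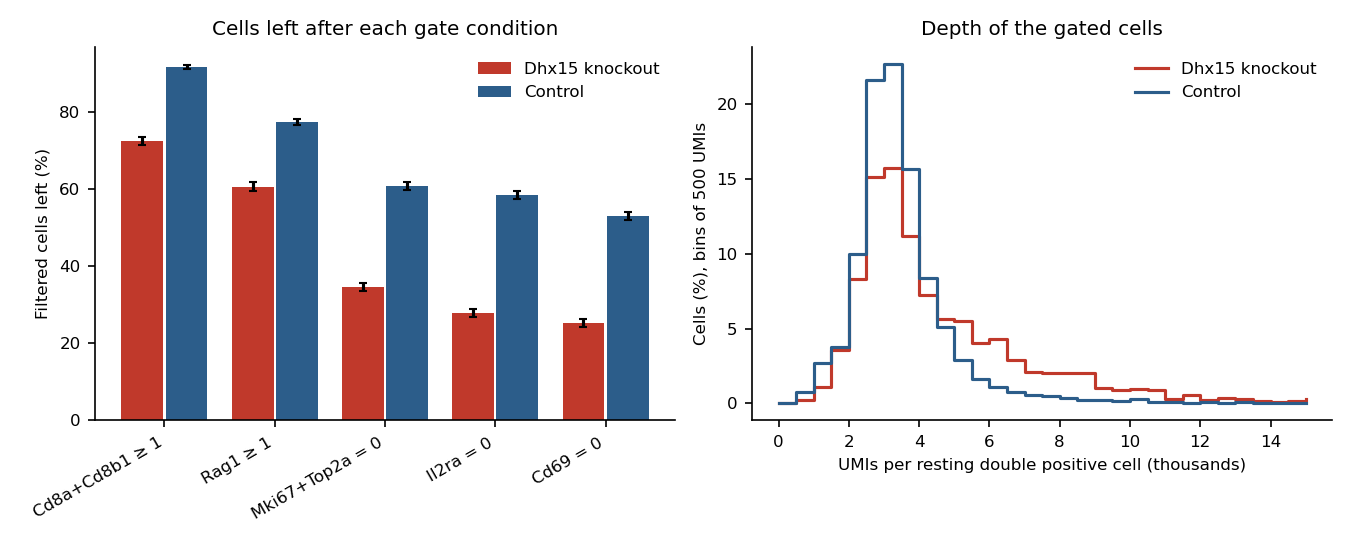
Left, the share of filtered cells (%) left after each condition of the gate in turn, knockout in red and control in blue, with exact 95% intervals as bars; the knockout ends at 25.3% and the control at 53%. Right, the distribution of UMIs per gated cell in bins of 500 UMIs (axis in units of 1000 UMIs), drawn up to 15500 UMIs; the knockout curve has a longer right tail, with an upper quartile of 5716 UMIs against 3909.5 in the control.

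Double positive markers that the gate did not use were present in both libraries. Cd4 was detected in 84.3% of gated knockout cells and 86.8% of gated control cells, against 22.5% of 120 knockout non-T cells and 18.2% of 33 control non-T cells, at median depths of 2339.5 UMIs in the knockout and 1870 in the control non-T cells. Those non-T cells have at least 5 UMIs of macrophage or B-cell genes and none of Cd3d, Cd3e and Cd3g. The condition on the Cd3 genes selects cells with little thymocyte RNA, and their median depth was below that of gated cells. Their shares are given for comparison and do not measure how often free RNA gives a UMI in gated cells. After thinning each gated cell to 2000 UMIs, Cd4 was detected in 65.7% of knockout cells and 74.7% of control cells. Rag2, Dntt, Ccr9, Arpp21, Themis, Cd1d1 and Ptcra were detected as well, and the 9 double positive markers outside the gate summed to 5734 counts per 1000000 UMIs (CPM) in the knockout and 7052 CPM in the control.

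Markers of gamma delta T cells were the main sign of another cell type in the gate, and they were more abundant in the knockout. All 8 markers on that list were detected in both libraries, summing to 349 CPM in the knockout and 60.7 CPM in the control. Trdc, the constant region of the T-cell receptor delta chain, was at 203 CPM in the knockout and 40.2 CPM in the control, in 27.6% of knockout cells and 8.90% of control cells. Trdc was detected in 5.00% of non-T cells in the knockout and 9.09% of the 33 non-T cells in the control. At least 2 UMIs summed over Trdc, Tcrg-C1, Tcrg-C2 and Tcrg-C4 were found in 353 knockout cells (19.2%, median 7056 UMIs) and 120 control cells (2.57%, median 4188.5 UMIs). Where leaving these cells out ended the call of a gene named below, its value without them is given. The 3 Tcrg-C genes are near copies, so reads may be split among them.

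Sums for the markers of other cells often rested on few genes. The natural killer and innate list summed to 579 CPM in the knockout and 70.2 CPM in the control, of which Gzma alone was 557 CPM in the knockout and 56.1 CPM in the control, and the other 7 genes summed to 21.1 CPM in the knockout and 14.0 CPM in the control. Fcer1g was at 7.59 CPM in the knockout and 3.98 CPM in the control, Tyrobp at 7.12 CPM in the knockout and 4.16 CPM in the control and Klrd1 at 1.99 CPM in the knockout and 1.96 CPM in the control. The early thymocyte (DN2-3) list summed to 195 CPM in the knockout and 89.1 CPM in the control, of which Notch1 was 174 CPM in the knockout and 75.4 CPM in the control. Its member Hes1 was at 3.74 CPM in the knockout and 0.735 CPM in the control, from 32 knockout and 12 control UMIs. Mpzl2 was at 1.40 CPM in the knockout and 0.429 CPM in the control, from 12 and 7 UMIs. Igll1 had 5 UMIs in the knockout and 1 in the control. Kit was lower, at 0.817 CPM in the knockout and 1.84 CPM in the control, from 7 and 30 UMIs. The mature single positive list summed to 244 CPM in the knockout and 253 CPM in the control. Its member Foxp3 had 0 UMIs in the knockout and 17 UMIs in the control, 12 of them in a single cell. The B-cell and MHC class II list summed to 163 CPM in the knockout and 291 CPM in the control. The highest control cell of each gene held 866 of 1773 Cd74, 329 of 714 H2-Aa, 422 of 689 H2-Ab1 and 286 of 559 H2-Eb1 UMIs. In the knockout it held 143 of 426 Cd74, 33 of 143 H2-Aa, 23 of 138 H2-Ab1 and 21 of 105 H2-Eb1 UMIs. Myeloid markers summed to 512 CPM in the knockout and 277 CPM in the control, and without S100a8 and S100a9, most of whose knockout UMIs came from a single cell each, to 237 CPM in the knockout and 249 CPM in the control. Among them Lyz2 was at 13.1 CPM in the knockout and 5.63 CPM in the control, but a single cell held 85 of its 112 knockout UMIs. Without the highest cell of each library 27 Lyz2 UMIs were left in the knockout and 74 in the control. Cst3 made up most of the sum without S100a8 and S100a9, at 205 CPM in the knockout and 233 CPM in the control. A single control cell held 774 of its 3801 UMIs. C1qa, C1qb and C1qc were at 5.6, 6.19 and 5.72 CPM in the knockout and 2.63, 3.12 and 1.8 CPM in the control. They were detected in 17, 17 and 19 knockout cells. Csf1r was also higher, from 7 knockout and 8 control UMIs, and Mpeg1 was lower, from 11 and 51 UMIs. Stromal markers summed to 163 CPM in the knockout and 135 CPM in the control, and erythroid markers to 1.75 CPM in the knockout and 1.59 CPM in the control. Of the Y-linked genes Ddx3y, Eif2s3y, Kdm5d and Uty no gene had more than 1 UMI in either library, and Xist, the RNA of the inactive X chromosome, was at 2011 CPM in the knockout and 1726 CPM in the control.

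Dhx15 itself was at 105 CPM in gated knockout cells and 174 CPM in gated control cells, a log2 ratio of -0.74 (-0.85 to -0.63). It was detected in 36.4% of knockout cells and 42.6% of control cells, and, after thinning each cell to 2000 UMIs, in 19.1% of knockout cells and 29.1% of control cells. The ratio varied with depth. Among cells of 1000 to under 2000 UMIs Dhx15 was at 159 CPM in the knockout and 152 CPM in the control. Those values rest on 23 knockout and 72 control Dhx15 UMIs, too few for a precise ratio. Among cells of 4000 to under 8000 UMIs the knockout was lower. In the depth-matched cells, of 2000 to under 4000 UMIs, the log2 ratio was -0.54, and without the cells with gamma delta genes -0.63, with 0.585 as the threshold of 1.5-fold. Droplet counts tag the 3' end of a transcript, which may lie outside the deleted exons, so the remaining 105 CPM do not measure intact Dhx15.

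Of 9345 genes with at least 100 UMIs over both libraries, leaving out the 7 gate genes, 750 were at least 1.5-fold higher in the knockout (8.03%) and 1019 at least 1.5-fold lower (10.9%). The median log2 ratio of knockout over control over these genes was -0.09. Since library totals set the scale, a set of genes that takes a larger share of the total lowers all others: cytosolic ribosomal proteins took 23% of gated knockout UMIs and 15.2% of gated control UMIs. With median-of-ratios scaling, which centres the genes on 0, the counts became 953 higher and 750 lower. Cells of 2000 to under 4000 UMIs, the depth-matched cells below, had a median of 3076 UMIs in the knockout and 3071 in the control. Among them 603 genes (7.3%) were higher and 582 (7.04%) lower. The shares of 8.03% higher and 10.9% lower are the background for the counts of each gene list. A named gene whose ratio fell short of 1.5-fold in the depth-matched cells, or without the cells with gamma delta genes, has that value beside it.

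**Figure D2:**
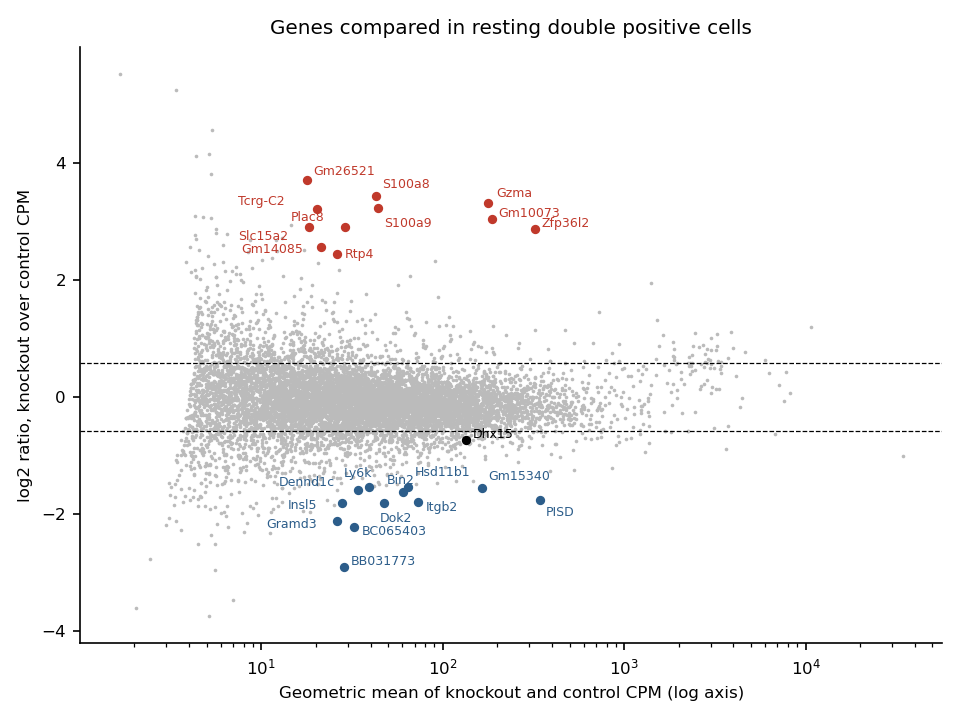
Each grey point is one of the compared genes in resting double positive cells with UMIs in both libraries, plotted by the geometric mean of knockout and control CPM (log axis) and the log2 ratio of knockout over control. Dashed lines mark 1.5-fold; the genes with the largest ratios are in red, those with the smallest in blue and Dhx15, at -0.74, in black.

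Zfp36l2 was higher in the knockout over most cells. It encodes an RNA-binding protein that speeds the decay of mRNAs with AU-rich elements and restrains the cell cycle in developing lymphocytes. Zfp36l2 was at 877 CPM in the knockout and 120.0 CPM in the control, 7.31-fold higher (6.96 to 7.69). It was detected in 81.5% of knockout cells and 27.0% of control cells, and 11.7% of knockout cells held 10 or more UMIs against 0.0214% of control cells. After thinning to 2000 UMIs the shares were 69.0% of knockout cells and 18% of control cells. Within cells of 2000 to under 4000 UMIs the log2 ratio was 2.82, and without the cells with gamma delta genes it was 2.81, close to 2.87 over all gated cells.

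Gzma, the serine protease granzyme A of cytotoxic granules, was at 557 CPM in the knockout and 56.1 CPM in the control, a log2 ratio of 3.31 (3.21 to 3.42). It was detected in 45.0% of knockout cells and 11.2% of control cells, against 10.8% of knockout and 3.03% of control non-T cells. No single cell carried the sum, since the highest knockout cell held 89 of 4774 UMIs. Gzma was unevenly spread among the knockout cells: 7.55% of them held 10 or more UMIs, while 55.0% held none. Without the cells with gamma delta genes the log2 ratio was 2.42, and in cells of 2000 to under 4000 UMIs it was 1.88.

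UMIs assigned to Gh, the growth hormone gene, numbered 892 in the knockout, or 104 CPM, and 0 in the control. Against a floor of 3 counts over the control cells this is at least 567-fold higher in the knockout, and the exact 95% interval of the ratio starts at 460-fold. Whether these reads come from the mouse Gh locus or from a transgene that holds a growth hormone sequence was not tested. It was detected in 32.6% of knockout cells with at most 7 UMIs in a cell, and in 0.833% of knockout non-T cells. Gh was at 74.2 CPM in Cd69-positive, 91.8 CPM in cycling and 54.2 CPM in all other knockout cells, and at 0 UMIs in each of these control populations.

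Of the other genes with the largest ratios, Rtp4, an interferon-induced chaperone of membrane receptors, was at 60.6 CPM in the knockout and 11.1 CPM in the control, a log2 ratio of 2.44. Slc15a2, a proton-coupled peptide transporter, was at 50.3 CPM in the knockout and 6.73 CPM in the control, a log2 ratio of 2.90 that was 3.05 without the cells with gamma delta genes. Plac8 was at 78.9 CPM in the knockout and 10.5 CPM in the control, and its log2 ratio of 2.91 was 1.65 without those cells. Tcrg-C2, a constant region of the T-cell receptor gamma locus, was at 62.1 CPM in the knockout and 6.67 CPM in the control, a log2 ratio of 3.22 that was 2.20 without them. Of the unnamed transcripts, Gm26521 was at 65.2 CPM in the knockout and 4.96 CPM in the control, and Gm14085 at 51.8 CPM in the knockout and 8.75 CPM in the control. Gm10073 was at 538 CPM in the knockout and 65.5 CPM in the control, in 76.2% of knockout cells and 19.2% of control cells.

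S100a8 and S100a9, the subunits of calprotectin in neutrophils and monocytes, also reached this group, with log2 ratios of 3.44 and 3.22. Each rests on 1 knockout cell. The highest knockout cell for S100a8 held 1164 of the 1208 S100a8 UMIs. The highest knockout cell for S100a9 held 1085 of its 1146 UMIs. Leaving out the highest cell in each library turned the log2 ratios to -1.24 for S100a8 and -0.90 for S100a9. Without the cells with gamma delta genes they were -1.08 for S100a8 and -0.67 for S100a9. These genes were detected in 2.28% (S100a8) and 3.21% (S100a9) of knockout cells and in 3.57% (S100a8) and 3.68% (S100a9) of control cells.

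Among the genes with the smallest ratios, Itgb2, the integrin beta chain CD18 shared by LFA-1 and Mac-1, was at 39.0 CPM in the knockout and 136 CPM in the control, a log2 ratio of -1.80 (-1.97 to -1.63). Dok2, an adaptor that dampens receptor tyrosine kinase and T-cell receptor signals, was at 25.2 CPM in the knockout and 88.3 CPM in the control, a log2 ratio of -1.81. Bin2, a membrane-bending BAR domain protein, was at 34.7 CPM in the knockout and 106 CPM in the control. Dennd1c, an exchange factor for Rab GTPases, was at 19.6 CPM in the knockout and 58.8 CPM in the control. All 4 were lower in the Cd69-positive, cycling and remaining cells too, by a log2 ratio of -0.73 or below.

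Hsd11b1, the enzyme that regenerates active glucocorticoid inside cells, was at 38.1 CPM in the knockout and 110 CPM in the control, a log2 ratio of -1.53. In cells of 2000 to under 4000 UMIs that ratio was -0.88, and without the cells with gamma delta genes -1.18. Insl5, a relaxin-family peptide, was at 14.9 CPM in the knockout and 52.2 CPM in the control, and Ly6k, a GPI-anchored surface protein, at 23.1 CPM in the knockout and 67.0 CPM in the control. Gramd3, a GRAM-domain protein, was at 12.5 CPM in the knockout and 54.4 CPM in the control. The transcripts BB031773, BC065403 and Gm15340 were at 10.5, 15.1 and 96.5 CPM in the knockout and 78.4, 69.7 and 284 CPM in the control. Without the cells with gamma delta genes their log2 ratios were -2.48 for BB031773, -1.89 for BC065403 and -1.23 for Gm15340. The entry spelled PISD in capitals was at 186 CPM in the knockout and 627 CPM in the control, while the separate entry Pisd was at 12.6 CPM in the knockout and 16.1 CPM in the control. Whether reads are split between these entries was not tested.

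**Figure D3:**
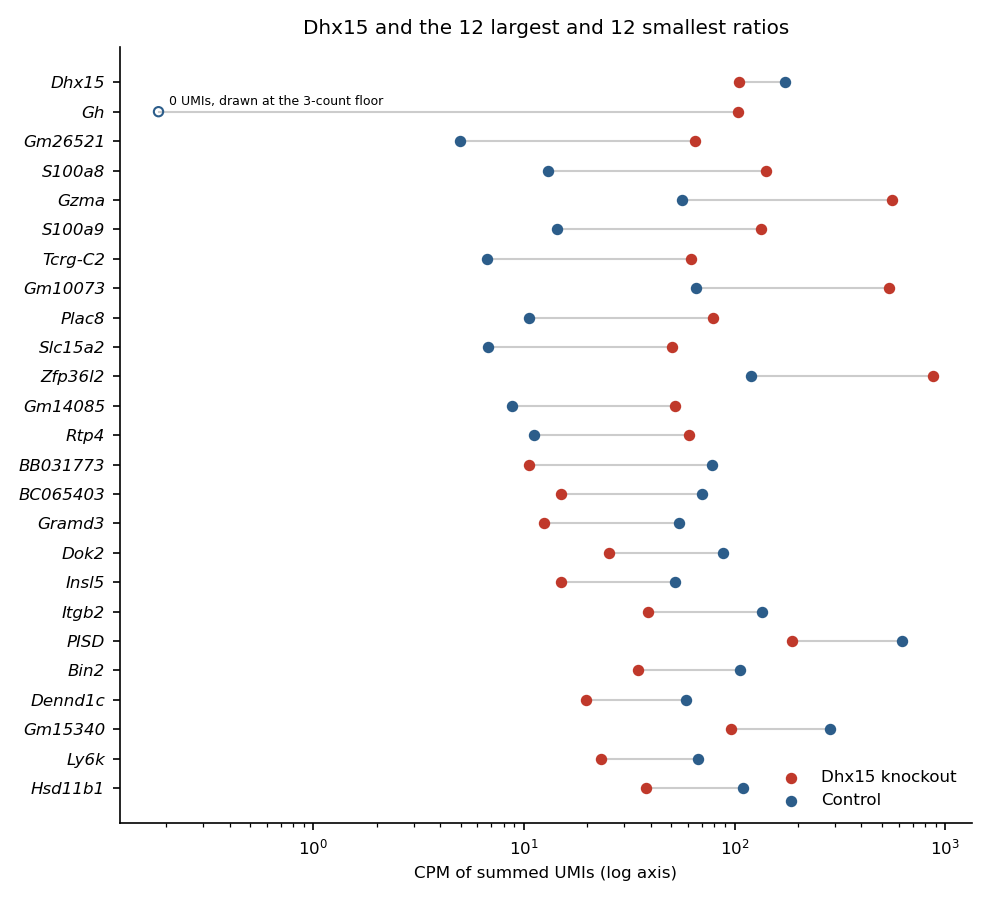
CPM of summed UMIs (log axis) in resting double positive cells for Dhx15, the 12 genes with the largest ratios and the 12 with the smallest, knockout in red and control in blue. Gh had 0 control UMIs and its open circle is drawn at the 3-count floor of 0.184 CPM; Zfp36l2, at 877 CPM in the knockout, has the highest knockout level of those plotted.

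Of 21 transcription factors of the double positive stage, 2 were higher, 2 lower and 17 between. Each count is 9.52% of the list, near the 8.03% higher and 10.9% lower over all genes, with a median log2 ratio of -0.12 against -0.09 over all genes. Tcf7, encoding TCF-1, was at 1762 CPM in the knockout and 1935 CPM in the control. Bcl6 was lower, at 81.5 CPM in the knockout and 151 CPM in the control, and Sox4 was lower at 608 CPM in the knockout and 920 CPM in the control. In the depth-matched cells the log2 ratio was -0.33 for Bcl6 and -0.35 for Sox4, and without the cells with gamma delta genes -0.61 for Bcl6 and -0.44 for Sox4. Gata3, a factor of CD4 lineage choice, was higher at 123 CPM in the knockout and 76.6 CPM in the control, and Runx3, a factor of CD8 lineage choice, was higher at 31.8 CPM in the knockout and 18.3 CPM in the control. Satb1, a chromatin organiser needed for receptor rearrangement, did not pass 1.5-fold, at 2617 CPM in the knockout and 3766 CPM in the control.

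Of 10 partners of V(D)J recombination compared, 1 was lower (10% of the list, against 10.9% of all genes) and none higher. Rag2 was at 205 CPM in the knockout and 325 CPM in the control, a log2 ratio of -0.67 (-0.75 to -0.59). Its log2 ratio was 0.39 in cells of 1000 to under 2000 UMIs, -0.26 at 2000 to under 4000, -0.56 at 4000 to under 8000 and -0.39 without the cells with gamma delta genes, short of 1.5-fold in each. Dntt, the polymerase TdT that adds untemplated nucleotides at the joints, was at 1879 CPM in the knockout and 1760 CPM in the control. Rag1, which chose the cells, was at 1820 CPM in the knockout and 3160 CPM in the control and is given as a description.

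Among 25 components of the T-cell receptor complex, its coreceptors and its proximal signalling, 5 were lower (20%) and 1 higher (4%), with a median log2 ratio of -0.16. Of the 5, 2 stayed lower in the depth-matched cells and 3 without the cells with gamma delta genes. Lck, the kinase bound to CD4 and CD8, was at 947 CPM in the knockout and 1808 CPM in the control, a log2 ratio of -0.93 (-0.97 to -0.90). Trac, the alpha chain constant region, was at 383 CPM in the knockout and 715 CPM in the control, a log2 ratio of -0.90 (-0.96 to -0.85). Cd3e was at 558 CPM in the knockout and 901 CPM in the control. Themis, an adaptor required for positive selection, was at 593 CPM in the knockout and 945 CPM in the control, and Fyn was at 60.3 CPM in the knockout and 95.3 CPM in the control. In the depth-matched cells the log2 ratio was -0.35 for Themis and -0.49 for Fyn, and without the cells with gamma delta genes -0.48 for Themis and -0.50 for Fyn. The higher member was Ptcra, the pre-T-cell receptor alpha chain of the stage before, at 89.8 CPM in the knockout and 58.4 CPM in the control. Its log2 ratio was 0.04 in the depth-matched cells and 0.55 without the cells with gamma delta genes. The beta chain constant regions were near each other between libraries: Trbc1 was at 4101 CPM in the knockout and 4582 CPM in the control and Trbc2 at 7436 CPM in the knockout and 7770 CPM in the control, with the reads of these near copies possibly split.

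The difference in Trac varied with depth and with Cd4. Its log2 ratio was -0.12 in cells of 1000 to under 2000 UMIs, -0.37 in cells of 2000 to under 4000 UMIs and -0.86 in cells of 4000 to under 8000 UMIs. In gated cells with no Cd4 UMI it was -1.69, and in those with 3 or more it was -0.72. Cells with no Cd4 UMI had a median of 4398 UMIs in the knockout and 2928 in the control. With 3 or more the medians were 4018 in the knockout and 3454 in the control, so the classes also differ in depth.

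Genes induced by T-cell receptor signals were lower on balance. Of 16 compared, 5 were lower (31.2%) and 1 higher (6.25%), and 15 of the 16 had a ratio below 1, with a median log2 ratio of -0.48. By comparison, 60.1% of all genes compared had a ratio below 1. Egr1, an immediate early transcription factor, was at 6.54 CPM in the knockout and 23.6 CPM in the control, a log2 ratio of -1.85 (-2.28 to -1.44). Dusp6, a phosphatase of ERK, was at 7.59 CPM in the knockout and 22.4 CPM in the control. Nfkbia, the NF-kappa B inhibitor, was at 212 CPM in the knockout and 356 CPM in the control, and Zfp36l1, the paralog of Zfp36l2, at 104 CPM in the knockout and 169 CPM in the control. Btg1, an antiproliferative factor, was at 1046 CPM in the knockout and 1796 CPM in the control. Myc was the exception at 32.0 CPM in the knockout and 13.8 CPM in the control, a log2 ratio of 1.22 (0.96 to 1.48) that was 0.27 in the depth-matched cells and 0.11 without the cells with gamma delta genes. Of the 5 lower genes, 3 stayed lower in the depth-matched cells. The exceptions were Btg1 at -0.42 and Zfp36l1 at -0.27, which without the cells with gamma delta genes were at -0.57 (Btg1) and -0.53 (Zfp36l1). The gate removed cells with Cd69, itself a target of these signals.

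Of 13 surface and homing molecules of cortical thymocytes, 3 were lower (23.1%) and 1 higher (7.69%). Ccr9, the receptor for the thymic chemokine CCL25, was at 984 CPM in the knockout and 1524 CPM in the control, a log2 ratio of -0.63 (-0.67 to -0.60). In the depth-matched cells its log2 ratio was -0.07, in cells of 1000 to under 2000 UMIs 0.26, and without the cells with gamma delta genes -0.33. Plxnd1, the semaphorin receptor plexin D1, was at 89.2 CPM in the knockout and 173 CPM in the control, and Cd24a was at 133 CPM in the knockout and 204 CPM in the control. Itga4, the integrin alpha 4 chain, was at 290 CPM in the knockout and 124 CPM in the control, a log2 ratio of 1.22 (1.13 to 1.30). Notch1, the receptor that drives the earlier, double negative stages, was 2.31-fold higher in the knockout (2.14 to 2.49), and its log2 ratio was 1.85 in cells without Cd4 UMIs and 0.84 in cells with 3 or more.

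Interferon-stimulated genes were the list with the highest median ratio. Of 44 genes on the list, 32 passed the minimum of 100 UMIs, and of these 23 were higher (71.9%, against 8.03% of all genes) and none lower, with a median log2 ratio of 0.86. Bst2, the tetherin that holds budding virus at the membrane, was at 174 CPM in the knockout and 67.5 CPM in the control, a log2 ratio of 1.37 (1.25 to 1.48). Ifi203 was at 161 CPM in the knockout and 68.3 CPM in the control, and Ifi27l2a was at 145 CPM in the knockout and 62.6 CPM in the control. Zbp1, a sensor of Z-form nucleic acid, was at 62.6 CPM in the knockout and 25.2 CPM in the control. Usp18, which removes ISG15 from proteins and damps the interferon receptor, was at 28.8 CPM in the knockout and 5.14 CPM in the control, and Xaf1 was at 38.2 CPM in the knockout and 12.1 CPM in the control. Isg15 and Irf7 were lower in abundance but also past 1.5-fold, Isg15 with 14.6 CPM in the knockout and 8.02 CPM in the control and Irf7 with 14.4 CPM in the knockout and 8.57 CPM in the control. Iigp1, a GTPase of a family of near copies, was at 18.1 CPM in the knockout and 1.04 CPM in the control.

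All 23 stayed higher in the depth-matched cells, and 22 of them without the cells with gamma delta genes, when the minimum count was not applied again. With the minimum count applied again, 16 genes of the list were higher in the depth-matched cells. On that rule 21 were higher without the cells with gamma delta genes, and 16 with Cd4 in place of Rag1 in the gate. Summed over the list, the log2 ratio was 0.77 in cells without Cd4 UMIs, 0.67 in those with 1 to 2 and 0.71 in those with 3 or more. By depth it was 0.32 at 1000 to under 2000 UMIs, 0.79 at 2000 to under 4000 and 0.70 at 4000 to under 8000. MHC class I and peptide-loading genes, which interferon also induces, went the same way: of 11 compared, 3 were higher (27.3%) and none lower, and all 11 had a ratio above 1, against 39.9% of all genes compared. B2m, the light chain of MHC class I, was at 728 CPM in the knockout and 384 CPM in the control, a log2 ratio of 0.92 (0.87 to 0.97). Psmb9, an immunoproteasome subunit, was at 105 CPM in the knockout and 58.2 CPM in the control.

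Cytosolic ribosomal protein genes were higher as a block in the summed counts, but the count depended on which cells were summed. Of 82 compared, 39 were higher (47.6%) and none lower, with a median log2 ratio of 0.58. Rpl35 was at 2394 CPM in the knockout and 956 CPM in the control, a log2 ratio of 1.33 (1.29 to 1.35), and Rps28 was at 5667 CPM in the knockout and 2635 CPM in the control. Rpl22, which thymocytes need as alpha beta T cells develop, was at 2382 CPM in the knockout and 1137 CPM in the control, a log2 ratio of 1.07 that was 0.58 in the depth-matched cells. The number higher was 13 without the cells with gamma delta genes and 2 in cells of 2000 to under 4000 UMIs. Ribosomal protein genes have many processed copies, among which reads may be split.

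Ribosome assembly factors, where DHX15 acts, were mixed: of 42 compared, 3 were higher (7.14%), 2 lower (4.76%) and 37 between, shares below those of all genes, with a median log2 ratio of 0.12. Wdr75 was at 24.2 CPM in the knockout and 12.3 CPM in the control, and Ubtf, the activator of ribosomal RNA transcription, at 92.2 CPM in the knockout and 152 CPM in the control, with a log2 ratio of -0.48 in the depth-matched cells. Of the 5 snoRNA host genes compared, Snhg20 alone passed 1.5-fold, at 65.6 CPM in the knockout and 35.6 CPM in the control.

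Splicing genes past 1.5-fold were all lower, in shares no larger than the 10.9% of all genes. Among 49 core spliceosome proteins 3 were lower (6.12%) and none higher, with a median log2 ratio of -0.14: Bcas2 was at 69.2 CPM in the knockout and 124 CPM in the control, U2af2 at 78.0 CPM in the knockout and 135 CPM in the control, and Snrpd3 at 127 CPM in the knockout and 195 CPM in the control. Among 41 SR and hnRNP regulators 4 were lower (9.76%) and none higher, and the median log2 ratio was -0.32. Of the 41, 37 had a ratio below 1, as had 60.1% of all genes compared. Hnrnpa2b1 was at 737 CPM in the knockout and 1166 CPM in the control, and Srsf3 at 373 CPM in the knockout and 560 CPM in the control. None of these 4 stayed past 1.5-fold in the depth-matched cells, where the log2 ratio was -0.48 for Hnrnpa2b1 and -0.49 for Srsf3. Without the cells with gamma delta genes it was -0.56 for Hnrnpa2b1 and -0.57 for Srsf3. Snrpd3 was at -0.54 in the depth-matched cells. None of the 20 G-patch partners compared passed 1.5-fold in either direction, and their median log2 ratio was -0.04. Of 15 DEAH helicases, Dhx15 was the lower one and Dqx1 was higher, at 39.2 CPM in the knockout and 12.7 CPM in the control. Counts per gene do not show intron retention or splice site use.

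Histone genes had the lowest median ratio of the lists. Of 40 compared, 20 were lower (50%) and 2 higher (5%), with a median log2 ratio of -0.64, and 15 of the 20 stayed lower in the depth-matched cells. Hist1h1d was at 28.8 CPM in the knockout and 81.8 CPM in the control, a log2 ratio of -1.51 (-1.71 to -1.31), and Hist1h1b was at 46.2 CPM in the knockout and 78.7 CPM in the control, with a log2 ratio of -0.46 in the depth-matched cells. Hist1h2ap was one of the exceptions, at 323 CPM in the knockout and 155 CPM in the control. Most replication-dependent histone mRNAs lack a poly(A) tail, which droplet capture uses, and the cluster holds near copies that can split reads, so these levels measure captured transcripts.

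Replication genes outside the gate were higher although Mki67 and Top2a were at 0. Of 24 compared, 11 were higher (45.8%) and none lower, with a median log2 ratio of 0.50. Mcm6, a subunit of the replicative helicase, was at 102 CPM in the knockout and 39.7 CPM in the control, with a log2 ratio of 0.58 in the depth-matched cells, and Prim1, the DNA primase, was at 27.4 CPM in the knockout and 8.27 CPM in the control. The number higher was 1 when 12 cycling genes were held at 0 in place of 2, 1 in cells of 2000 to under 4000 UMIs, where the minimum of 100 UMIs was applied again, and 5 without the cells with gamma delta genes. Summed over the list, the log2 ratio was 0.89 in cells without Cd4 UMIs, 0.23 in those with 1 to 2 and 0.14 in those with 3 or more. Genes of G2 and mitosis had 6 of 22 higher (27.3%) and none lower. E2f1, a transcription factor of the entry into S phase, was at 10.7 CPM in the knockout and 3.18 CPM in the control.

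Targets of p53 were partly higher, with 6 of 18 compared higher (33.3%), none lower and a median log2 ratio of 0.37. All 6 stayed higher in the depth-matched cells and without the cells with gamma delta genes. Phlda3, a repressor of AKT, was at 12.1 CPM in the knockout and 3.43 CPM in the control, a log2 ratio of 1.82 (1.34 to 2.32). Bbc3, the BH3-only killer PUMA, was at 75 CPM in the knockout and 47.6 CPM in the control, and Zmat3, an RNA-binding p53 target, at 39.2 CPM in the knockout and 23.3 CPM in the control. Ei24 was at 41.4 CPM in the knockout and 24.2 CPM in the control. Of the BCL2 family, 2 of 11 were higher and 2 lower, 18.2% each. Bcl2 was at 20.2 CPM in the knockout and 35.3 CPM in the control, with a log2 ratio of 0.06 in the depth-matched cells, and Bmf, a BH3-only protein, was at 18.7 CPM in the knockout and 45.8 CPM in the control. Bcl2l1, which encodes BCL-xL, the main survival protein of this stage, was at 154 CPM in the knockout and 177 CPM in the control, and Mcl1 was at 423 CPM in the knockout and 463 CPM in the control.

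**Figure D4:**
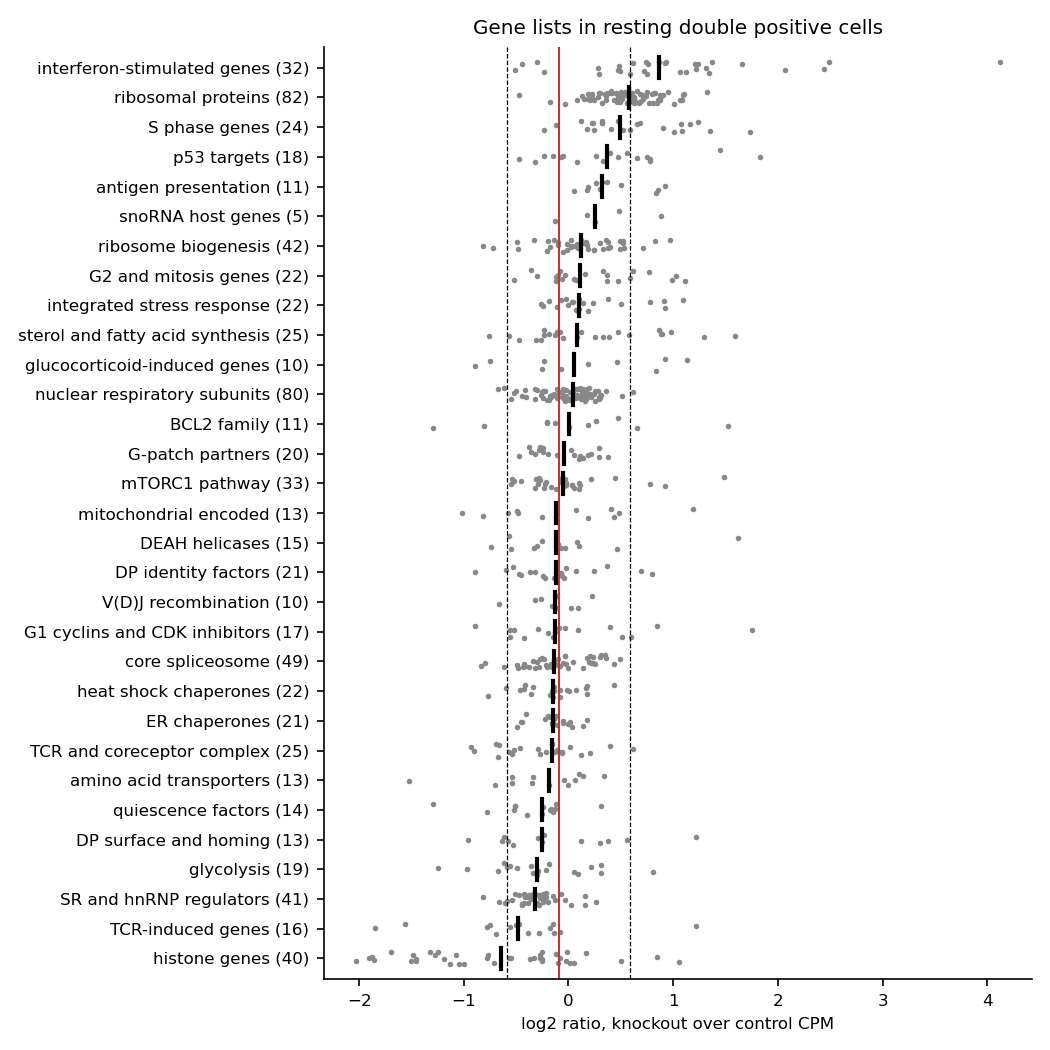
Log2 ratio of knockout over control CPM for the compared members of each gene list in resting double positive cells, 1 grey point per gene, with the number compared in brackets. Black bars are list medians, dashed lines mark 1.5-fold and the red line is the median of all compared genes, -0.09; interferon-stimulated genes are highest at 0.86 and histone genes lowest at -0.64.

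Of 22 genes of the integrated stress response 4 were higher (18.2%, against 8.03% of all genes) and none lower, with a median log2 ratio of 0.10. Ddit4, an inhibitor of mTORC1, was at 361 CPM in the knockout and 190 CPM in the control, a log2 ratio of 0.92 (0.85 to 1.00), and Phgdh, the first enzyme of serine synthesis, was at 106 CPM in the knockout and 56.4 CPM in the control, with a log2 ratio of 0.54 in the depth-matched cells. Of 13 amino acid transporters 2 were lower (15.4%, against 10.9% of all genes) and none higher: Slc6a19 was at 24.6 CPM in the knockout and 70.7 CPM in the control, and the glutamine carrier Slc1a5 was at 40.4 CPM in the knockout and 65.6 CPM in the control. Of 33 genes of the mTORC1 pathway 3 were higher (9.09%) and none lower, with a median log2 ratio of -0.05. Heat shock chaperones had 2 of 22 lower (9.09%), and none of 21 endoplasmic reticulum chaperones passed 1.5-fold. Glucocorticoid-induced genes were split, with Fkbp5 at 209 CPM in the knockout and 95.1 CPM in the control, Tsc22d3 at 348 CPM in the knockout and 195 CPM in the control and Sgk1 at 11.2 CPM in the knockout and 20.9 CPM in the control. In the depth-matched cells the log2 ratio was 0.49 for Fkbp5 and -0.09 for Sgk1, and without the cells with gamma delta genes Sgk1 was at -0.55.

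Of 19 glycolysis genes 4 were lower (21.1%) and 1 higher (5.26%), with a median log2 ratio of -0.30. Ldhb, the lactate dehydrogenase B chain, was at 344 CPM in the knockout and 815 CPM in the control, a log2 ratio of -1.24 (-1.30 to -1.19), and Eno1 was at 129 CPM in the knockout and 206 CPM in the control. The log2 ratio of Eno1 was -0.47 in the depth-matched cells and -0.57 without the cells with gamma delta genes. Of the 13 respiratory genes of the mitochondrial genome, mt-Co1 was higher, at 16240 CPM in the knockout and 7097 CPM in the control, while mt-Nd2 was at 683 CPM in the knockout and 1206 CPM in the control and mt-Nd3 at 311 CPM in the knockout and 631 CPM in the control. The 80 nuclear respiratory subunits had 1 higher (1.25%) and 2 lower (2.5%). Of 25 sterol and fatty acid genes 6 were higher (24%) and 1 lower (4%), and 3 of the 6 stayed higher in the depth-matched cells. Mvd was at 15.5 CPM in the knockout and 5.14 CPM in the control, and Cyp51 was at 13.5 CPM in the knockout and 5.51 CPM in the control, while Scd2 was at 180 CPM in the knockout and 305 CPM in the control.

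**Figure D5:**
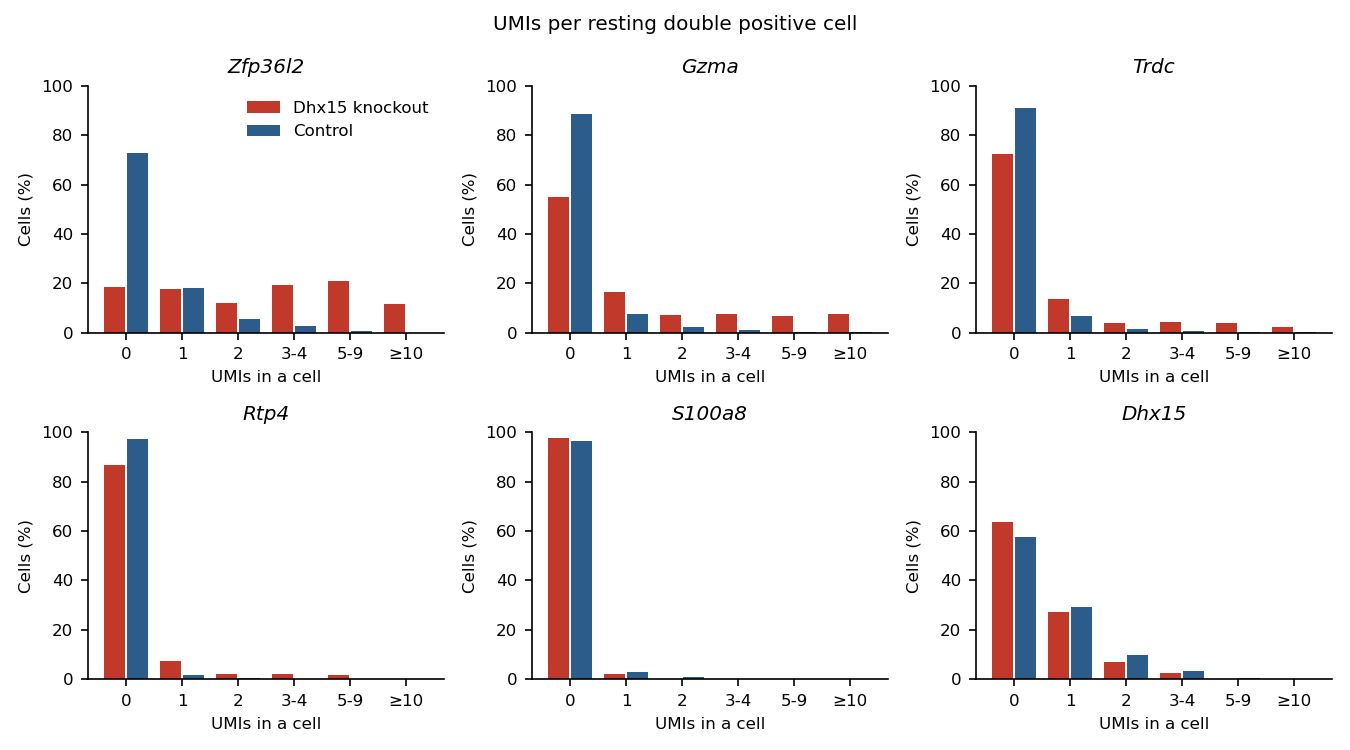
Share of resting double positive cells (%) by the number of UMIs of a gene in the cell, knockout in red left of control in blue. Zfp36l2 is shifted over most knockout cells, Gzma and Trdc have a tail of cells with 10 or more UMIs, Rtp4 is found in 13.1% of knockout cells and 2.50% of control cells, S100a8 in few cells of either, and Dhx15 in 36.4% of knockout cells and 42.6% of control cells.

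Raw Cd4 UMIs subdivided the gated cells in similar shares, which do not allow for the greater depth of the knockout cells. Over all gated cells Cd4 was at 544 CPM in the knockout and 750 CPM in the control. After thinning to 2000 UMIs it was detected in 65.7% of knockout cells and 74.7% of control cells. Cells with no Cd4 UMI were 15.7% of gated knockout cells and 13.2% of gated control cells, those with 1 to 2 were 41.4% in the knockout and 42.2% in the control, and those with 3 or more were 42.9% in the knockout and 44.6% in the control. Cells without Cd4 UMIs had a median of 4398 UMIs in the knockout and 2928 in the control, so the 2 sets differ in how readily Cd4 is missed. With 3 or more Cd4 UMIs the medians were 4018 in the knockout and 3454 in the control. Among these classes the cells without Cd4 UMIs had the largest Gzma and Trdc ratios. Their Gzma was at 1152 CPM in the knockout and 45.2 CPM in the control, a log2 ratio of 4.67 that was 3.09 with 1 to 2 Cd4 UMIs and 2.53 with 3 or more. Trdc was at 320 CPM in knockout and 55.8 CPM in control cells without Cd4 UMIs. It was at 155 CPM in knockout and 32.8 CPM in control cells with 3 or more Cd4 UMIs. Zfp36l2 kept a log2 ratio of 2.45, 2.91 and 2.98 over the 3 classes of rising Cd4. Itgb2 had log2 ratios of -1.90, -2.05 and -1.58 over the same classes.

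The same ratios were taken in other cells of the same 2 libraries. They were 185 knockout and 493 control cells with Cd69 that met every other condition of the gate, 1372 knockout and 1364 control cells with Mki67 or Top2a that met the conditions on Cd8a, Cd8b1, Rag1 and Il2ra, whatever their Cd69 (called cycling here), and all cells outside the gate, 5421 in the knockout and 4143 in the control. They share their libraries with the resting cells, so they are not independent, and the differences between populations were not tested. Dhx15 had log2 ratios of -0.99 in Cd69-positive cells, -1.08 in cycling cells and -0.89 in all other cells, each lower than the -0.74 of resting cells. Zfp36l2 was at 795 CPM in knockout and 198 CPM in control cycling cells, a log2 ratio of 2.01 against 2.87 in resting cells. Gzma had a log2 ratio of 1.58 in cycling cells, where the control was at 179 CPM, against 56.1 CPM in resting control cells. Interferon-stimulated genes had median log2 ratios of 0.67 in Cd69-positive cells, 0.93 in cycling cells and 0.45 in all other cells. Ribosomal proteins had 0.22, 0.37 and 0.32 in the same order, below the 0.58 of resting cells. Genes induced by T-cell receptor signals had -0.56, -0.48 and -1.06, and histone genes -0.02, -0.76 and -0.53. The median over all genes compared was -0.03 in Cd69-positive, -0.10 in cycling and -0.07 in all other cells.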

How the data were processed

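Single cells of 2 mouse thymus libraries were captured in droplets, per the labels' protocols. Per the file headers, the deposited matrices come from Cell Ranger 6.0.1 and hold whole UMI counts per gene and barcode; the submitters' processing notes list Cell Ranger 6.0.2, Scanpy 1.7.1 and mm10. Genes have Ensembl IDs and symbols in the files. Libraries held 8484 barcodes in the knockout and 9434 in the control.

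The members, gene lists, markers and rules were chosen with earlier results of these data known. Counts of gated cells were summed per library, scaled to counts per 1000000 UMIs (CPM) and divided, knockout over control; the 95% interval is the exact conditional binomial (Clopper-Pearson) interval, as are those of shares. A gene was compared at 100 or more UMIs over both libraries, gate genes left out, and called past 1.5-fold. Where list members are said to have stayed past 1.5-fold in other cells, this minimum was not applied again. Named genes were Dhx15, the 12 largest and 12 smallest ratios at 50 CPM or more in the higher library, up to 4 members of each of 31 lists, Xist, the Y-linked genes Ddx3y, Eif2s3y, Kdm5d and Uty, and the markers. No test was run, since each group is 1 library. No doublet caller was run; leaving out cells above 2 times the median UMIs was an alternative. In all 10 alternatives were planned and 3 were added after seeing the data; the split by Cd4 was also added. On simulated counts 95.4% of the intervals held the true ratio over 9357 genes of this comparison. Those counts were drawn as independent Poisson values, for which the interval holds by design. The result checks the calculation and does not cover UMIs that cluster in single cells. Python 3.11.15, NumPy 2.4.6, pandas 2.3.3 and SciPy 1.17.1 were used. Some results on single genes are not reported here.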

Additional observations from a re-analysis of the deposited data

How the results depend on the processing

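No paired analysis was possible because each group holds 1 library. With 1 library per group no difference could be tested. Free RNA, cells of other types and doublets were not removed, and intervals cover counting error only. The 22 genes with the largest and smallest ratios other than S100a8 and S100a9 kept their direction and stayed past 1.5-fold under the 11 alternatives in which single genes were recomputed. In cells of 1000 to under 2000 UMIs, a window outside these alternatives, Plac8 had a log2 ratio of -0.03 with 3 knockout and 10 control UMIs. The cause of the changes below was not tested.

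Without a minimum count 3757 genes were higher and 3426 lower in the knockout; at 2-fold 298 were higher and 299 lower; and 582 were lower in cells of 2000 to under 4000 UMIs. With median-of-ratios scaling 953 were higher and 750 lower. The Dhx15 log2 ratio was -0.54 in cells of 2000 to under 4000 UMIs, -0.62 with equal weight per cell and -0.63 without cells with gamma delta genes. Ribosomal proteins higher numbered 20 after thinning to 2000 UMIs, 20 with Cd4 in place of Rag1, 24 with 12 cycling genes at 0, 22 at 1000 genes and under 5% mitochondrial UMIs, 16 without cells above 2 times the median UMIs, 2 in cells of 2000 to under 4000 UMIs, 23 with equal weight, 22 under a stricter gate and 13 without cells with gamma delta genes. S phase genes higher numbered 5, 1, 3, 1, 5, 3 and 5 with Cd4 in place of Rag1, 12 cycling genes, the UMI limit, 2000 to under 4000 UMIs, equal weight, the stricter gate and no cells with gamma delta genes. In cells of 2000 to under 4000 UMIs, with the minimum count applied again, 12 histone and 3 receptor-induced genes were lower. Without applying it again 16 histone genes were lower, 15 of them among the 20 of the main comparison. The receptor-induced genes lower were then 4, so part of these changes comes from the minimum count.

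With Cd4 in place of Rag1, 12 cycling genes, the UMI limit, 2000 to under 4000 UMIs, the stricter gate, no cells with gamma delta genes and no highest cell, the log2 ratio was -1.04, -0.93, -1.13, -0.69, -1.09, -1.08 and -1.24 for S100a8 and -0.89, -0.86, -0.75, -0.27, -0.92, -0.67 and -0.90 for S100a9. In knockout filtered cells the share of resting cells was 29.5% after thinning, 22.3% with Cd4 in place of Rag1, 13.0% with 12 cycling genes, 22% with the UMI limit, 19.2% under the stricter gate, 20.5% without cells with gamma delta genes and 23.3% at 1000 genes and under 5% mitochondrial UMIs. In control filtered cells it was 56.6% after thinning, 49.3% with Cd4 in place of Rag1, 32.4% with 12 cycling genes, 51% with the UMI limit, 42.9% under the stricter gate and 51.7% without cells with gamma delta genes.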
